A study of Homo sapiens with 9 samples.

Results

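The comparison set cells labelled A549 and given a CRISPR plasmid directed at OGT (labelled OGT_KO, 3 libraries) against cells with the same label given the empty plasmid (labelled NC, 3 libraries). The 6 libraries were chosen by their titles and make up 6 of the 9 in the series. A549 is a human lung adenocarcinoma cell line, and several marker genes given further on go against this label in both groups. Both groups received the Lenti-CRISPR-V2 backbone and were grown in the same serum-containing medium, so that the labelled difference was the OGT insert. The labels call the NC genotype WT. The descriptions of the libraries labelled OGT_KO carry the shared name GTsg12 and a replicate number, and the labels give neither a guide sequence nor a clone. Effects of 1 guide, of 1 clone, of edits elsewhere and of the loss of OGT therefore cannot be told apart. The titles call the replicates biological without naming separate cultures, and p-values measure the spread between these libraries, which may be technical.

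OGT is the enzyme that attaches O-linked N-acetylglucosamine (O-GlcNAc) to serine and threonine residues of nuclear, cytoplasmic and mitochondrial proteins, and OGA removes it. The sugar donor comes from the hexosamine pathway, which draws on glucose, glutamine, acetyl-CoA and UTP. The mark is carried by transcription factors, RNA polymerase II, chromatin regulators, keratins and many enzymes, and OGT also processes the cell-cycle and transcription regulator HCFC1 in human cells.

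The labelled cell line was checked against marker genes. The simple-epithelium keratins KRT8 and KRT18 were abundant in all 6 libraries, at 5180 to 12800 and 2830 to 7190 CPM (read counts normalized to the scaled library total). Other genes usually found in A549 went against the label in both groups. KRT19 had 0 to 11 counts per library, ALDH1A1 had 0 to 7, EPCAM had 0 to 1, and CDH1, AKR1B10 and AKR1C2 had 0 in every library. TXNRD1 stood at 16.1, 13.9 and 13.7 CPM in NC and at 20.7, 30.7 and 29.1 CPM in the libraries labelled OGT_KO (log2 change 0.88, edgeR adjusted p = 9.86e-06). CDKN2A, which is known to be deleted in A549 and was looked at after its values were seen, stood at 138, 127 and 113 CPM in NC and at 175, 148 and 166 CPM in the libraries labelled OGT_KO. The AKR1C genes share sequence and could lose reads that fit several copies. The part these marker levels play in the comparison was not tested. Alveolar type 2 markers summed to 178 to 195 CPM in NC and 132 to 167 CPM in the libraries labelled OGT_KO, nearly all from ABCA3, while SFTPA2, NAPSA and LAMP3 had at most 8 counts per library. Immune markers summed to 3.97 to 6.74 and 3.72 to 4.23 CPM, mostly from CD68. Club and goblet markers summed to at most 0.0722 CPM and endothelial markers to at most 0.513 CPM, with PECAM1 at 0 counts throughout. Fibroblast and mural markers summed to 1.32 to 1.62 CPM in NC and 1.99 to 3.29 CPM in the libraries labelled OGT_KO, mostly from ACTA2 (log2 change 1.19, edgeR adjusted p = 0.00345), with COL3A1 and PDGFRB at 0 counts in NC and in most of the others. Not all markers fixed beforehand were in the count table. It held 4 of 7 for alveolar type 2 cells and 4 of 7 for fibroblast and mural cells. For immune cells it held 2 of 4, and for club and goblet cells 2 of 4. SFTPB, SFTPC, PTPRC and CD3E were among those absent, so the sums leave them out. The part of these markers in the results was not tested.

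Library totals were 38327508 to 42245970 counts, with 14581 to 14954 genes counted in each. The first principal component held 63.2% of the variance and separated the groups. Base composition also differed between libraries. The change in OGT_KO had a rank correlation of -0.24 with transcript GC content across 11440 genes, as a description, since genes are not independent replicates. In 5 equal groups of genes from low to high GC content, the median log2 changes were 0.38, 0.14, -0.10, -0.15 and -0.05. The library labelled OGT_KO 2 stood apart, with a rank correlation of -0.44 between its deviation and GC content against -0.07 to 0.23 in the others. Held genes that rose, defined further on, had a median GC content of 49.4%, and those that fell of 53.8%.

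The targeted gene itself was not called lower. OGT stood at 30.9, 28.0 and 26.1 CPM in NC and at 22.3, 29.4 and 24.2 CPM in the libraries labelled OGT_KO, so the groups overlapped. The log2 change was -0.16 ± 0.13 (SE) with an adjusted p of 0.328 by edgeR's quasi-likelihood test with Benjamini-Hochberg adjustment. With an added correction for GC content the change was -0.29 (edgeR adjusted p = 0.0464). A Cas9 edit can disrupt a protein without lowering its mRNA, and the edited site and the protein were not analysed here. OGA, the enzyme that removes the mark, stood at 5.04, 5.22 and 4.16 CPM in NC and at 2.29, 3.26 and 1.11 CPM in the libraries labelled OGT_KO, without overlap. It fell by 1.11 ± 0.27 on the log2 scale (edgeR adjusted p = 0.00127) and by 0.80 to 1.5 when any of the libraries was left out.

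The expression change was broad. Of 12195 genes tested, edgeR called 5095 (41.8%) at an adjusted p under 0.05, with 2395 higher (19.6%) and 2700 lower (22.1%) in the libraries labelled OGT_KO. With library totals in place of the trimmed-mean (TMM) scaling, the split was 2887 higher and 2055 lower, and the median log2 change over all genes was 0.14 in place of 0.04. At least a 2-fold change was seen for 1506 called genes (12.3%), 898 higher (7.36%) and 608 lower (4.99%). The stricter set used from here on holds genes that were called in the fit of 6 libraries and in all 6 fits that left out 1 library, with the same sign, and whose groups did not overlap. These held genes numbered 3336 (27.4%), with 1389 higher (11.4%) and 1947 lower (16.0%), while the groups did not overlap for 6192 genes (50.8%) in all. Held changes of at least 2-fold numbered 617 higher (5.06%) and 532 lower (4.36%). Of the 3336, 3294 were also called with the same sign after the GC correction, and 3336 by DESeq2.

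Rises and falls were not spread evenly over expression levels. Genes were split into 4 equal groups by average level. In the lowest group, 179 were held higher and 134 lower, with a median absolute log2 change of 2.15. In the most abundant group, 357 were held higher and 947 lower, with a median of 0.61. Abundant genes thus fell more often than they rose, by small amounts, as the plot of change against level shows. The share held was 10.3% in the lowest group and 42.8% in the most abundant. With few counts only large changes can be held, so these medians do not compare sizes of change between levels. With library totals, 771 genes of the most abundant group were called higher and 1002 lower. These are called genes, a wider set than the held genes, so the counts are not on the same measure.

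**Figure D1:**
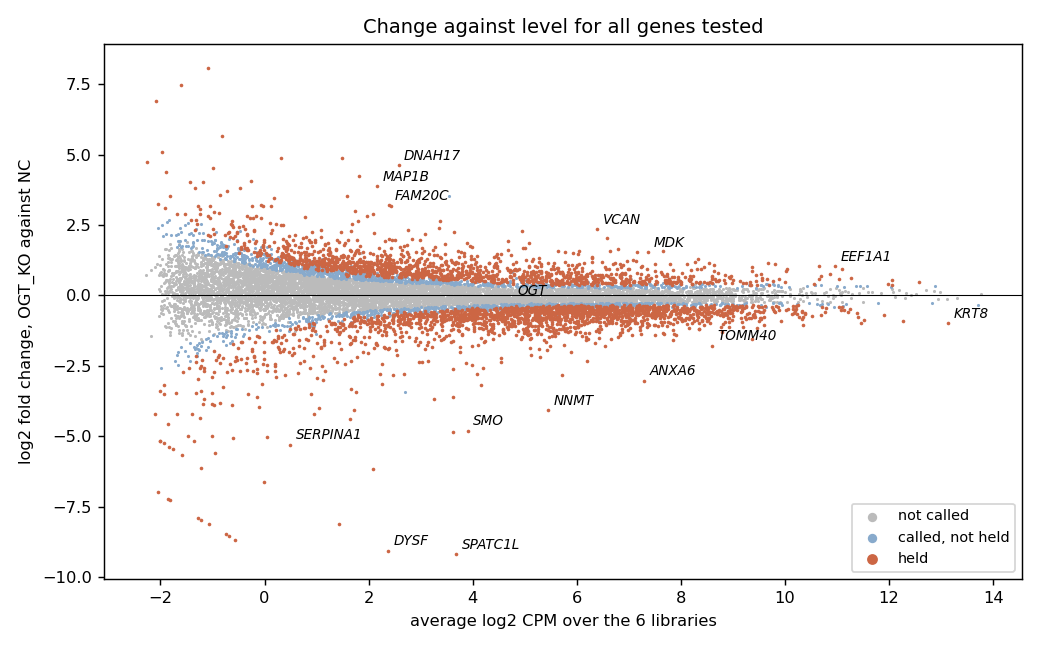
Log2 fold change of the libraries labelled OGT_KO against NC (vertical axis) by average log2 CPM over the 6 libraries (horizontal axis), 1 point per tested gene. Held genes (orange) number 1389 above and 1947 below the line, blue points were called without being held, and OGT lies near 0. The fitted values of genes with almost no counts in a group are not bounds.

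A few genes were nearly silent in the libraries labelled OGT_KO. By the rule of at most 10 counts summed over the 3 libraries of a group and at least 100 in each library of the other, 3 genes were near silent in OGT_KO and 0 in NC. SPATC1L, a speriolin-like gene on chromosome 21, went from 982, 1041 and 994 counts in NC to 1, 1 and 3 in the libraries labelled OGT_KO, a ratio of 0.0017 (95% exact interval 0.000551 to 0.00397, counting error only). DYSF, which encodes the membrane-repair protein dysferlin on chromosome 2, went from 434, 421 and 361 counts to 2, 0 and 0, a ratio of 0.00168 (0.000204 to 0.0061). For CAND2, a cullin exchange factor relative on chromosome 3, the counts were 203, 219 and 201 against 1, 1 and 0, a ratio of 0.00329 (0.000397 to 0.0119). The rule that chose these genes fixes that the 3 libraries of each group lie apart from those of the other. In bulk RNA, fewer cells that express a gene and less RNA per cell cannot be told apart.

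The promoters of these 3 genes are shown because their transcripts were near 0 in every library labelled OGT_KO. Each line gives the 250 bases before the RefSeq start (GRCh38.p14), 5′ to 3′ on the gene's strand, with CG dinucleotides in capitals, which read the same on both strands. The windows are chr21:46184460-46184709 on the minus strand for SPATC1L, chr2:71453311-71453560 on the plus strand for DYSF and chr3:12796430-12796679 on the plus strand for CAND2.
SPATC1L: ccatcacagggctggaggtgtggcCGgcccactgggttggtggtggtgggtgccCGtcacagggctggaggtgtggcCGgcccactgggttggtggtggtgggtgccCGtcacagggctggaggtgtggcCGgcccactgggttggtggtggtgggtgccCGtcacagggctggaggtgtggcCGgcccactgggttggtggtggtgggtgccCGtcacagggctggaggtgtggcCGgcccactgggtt
DYSF: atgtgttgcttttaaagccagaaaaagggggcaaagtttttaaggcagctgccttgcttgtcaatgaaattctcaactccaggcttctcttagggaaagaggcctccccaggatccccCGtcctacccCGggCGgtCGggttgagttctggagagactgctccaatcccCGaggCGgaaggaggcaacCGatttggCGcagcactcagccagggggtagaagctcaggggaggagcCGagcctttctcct
CAND2: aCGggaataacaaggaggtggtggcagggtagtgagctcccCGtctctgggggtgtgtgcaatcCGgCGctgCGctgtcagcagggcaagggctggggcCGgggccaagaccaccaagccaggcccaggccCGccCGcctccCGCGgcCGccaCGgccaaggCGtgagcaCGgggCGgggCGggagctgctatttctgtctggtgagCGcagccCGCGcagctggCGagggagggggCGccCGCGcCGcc
The windows of SPATC1L and DYSF held 9 CG each, and 82.9% of the 14165 promoters of tested genes held as many or more. That of CAND2 held 24 CG, as many as or fewer than 39.6% of them, against a median of 21. The windows of SPATC1L and DYSF thus held fewer CG than the median promoter and that of CAND2 more, and DNA methylation was not measured. Most of the SPATC1L window is a repeated unit, so its CG recur with that unit. Whether transcription starts at these RefSeq positions in these cells was not tested.

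The largest held changes joined genes of signalling, matrix and metabolism. SMO, the transducer of Hedgehog signalling, stood at 29.2, 26.8 and 30.4 CPM in NC and at 1.25, 0.727 and 1.11 CPM in the libraries labelled OGT_KO. It fell by 4.81 ± 0.19 on the log2 scale (edgeR adjusted p = 2.93e-20), with no overlap, which the choice of held genes fixes. NNMT, which methylates nicotinamide, went from 81.3, 75.5 and 89.2 CPM to 6.23, 3.94 and 4.31 CPM, a log2 change of -4.09 ± 0.15 (edgeR adjusted p = 9.25e-20). ANXA6, a calcium-dependent membrane-binding annexin, was the most abundant of the 15 largest falls, at 279, 283 and 279 CPM in NC and 37.2, 33.2 and 32.8 CPM in the libraries labelled OGT_KO (-3.03 ± 0.11, edgeR adjusted p = 8.48e-21). The other falls included TMEM98, MARCHF4, WNK2, CSF1, BCAT1, PDZK1IP1, DUSP2 and BEX3, with log2 changes from -6.16 for TMEM98 to -2.79 for BEX3. CSF1 is the macrophage colony-stimulating factor, BCAT1 the cytosolic branched-chain aminotransferase, and DUSP2 a nuclear phosphatase of MAP kinases.

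Most of the largest rises started from low levels. DNAH17, an axonemal dynein heavy chain, stood at 0.723, 0.245 and 0.405 CPM in NC and at 10.9, 11.2 and 11.9 CPM in the libraries labelled OGT_KO, a log2 change of 4.62 ± 0.26 (edgeR adjusted p = 1.21e-15). MAP1B, a neuronal microtubule-associated protein, rose by 3.88. FAM20C, the kinase of secreted phosphoproteins, rose by 3.2, from a mean of 1.01 ± 0.251 CPM to 9.36 ± 0.296 CPM (SD, n = 3). The basic helix-loop-helix factor LYL1 rose by 3.18 and the Notch-related repressor HES7 by 2.16. SMARCD3, a subunit of SWI/SNF chromatin remodellers, went from 10.6, 8.92 and 11.8 CPM to 54.2, 41 and 58.1 CPM (2.29 ± 0.14, edgeR adjusted p = 1.93e-14). Only VCAN, LAMB3 and SMARCD3 among the 15 largest rises had a mean above 50 CPM in the libraries labelled OGT_KO.

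**Figure D2:**
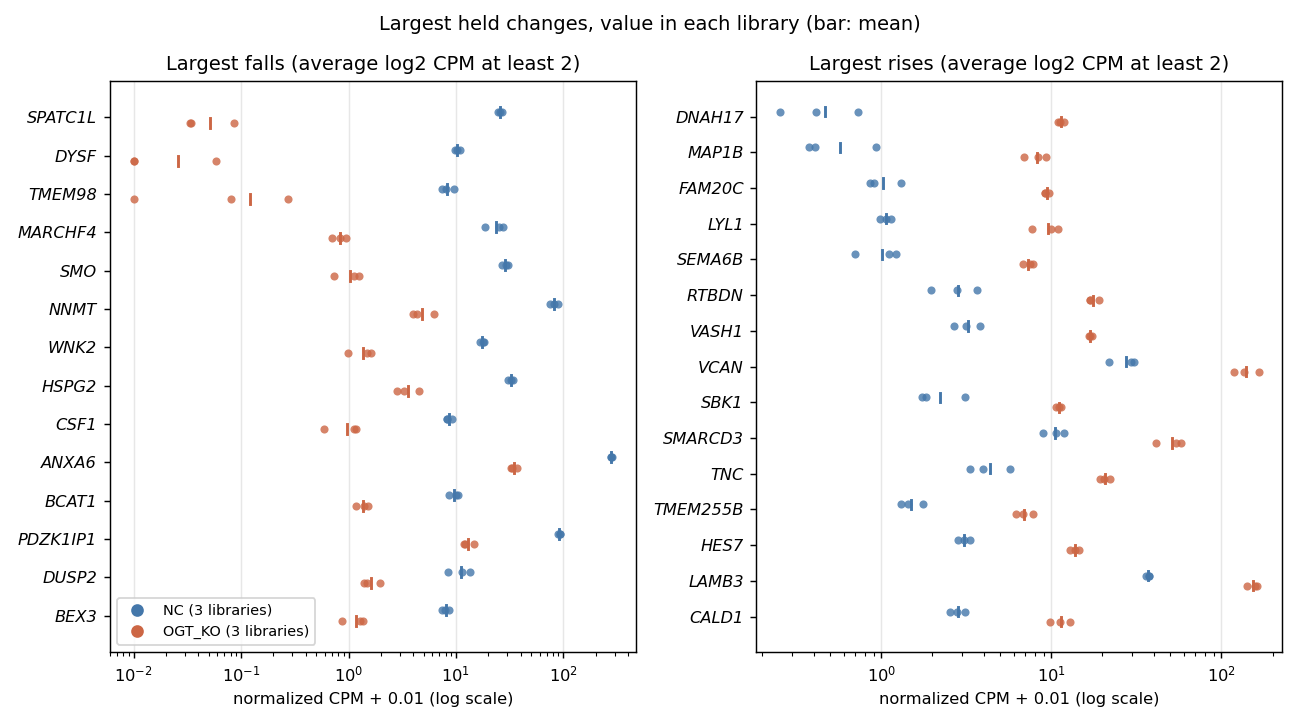
Normalized CPM + 0.01 (log axis) of the largest held falls and rises (average log2 CPM 2 or more), with a point for each of the 3 NC (blue) and 3 OGT_KO (orange) libraries and a bar at the mean. In every row the points of the groups do not overlap, which the choice of held genes fixes. TMEM98 reaches 0 in 1 library and ANXA6 falls from about 280 CPM.

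Functional groups are given next as counts of held members, to be read against 11.4% held higher and 16.0% held lower over all genes tested and a median log2 change of 0.04. Of 75 lists with at least 5 tested members, 29 exceeded those shares for falls only, 11 for rises only, 21 for both and 14 for neither. The bar chart shows 27 of the lists described here, which were selected after their values were seen, and no list was tested as a set. Library totals in place of TMM raised list medians by about the shift of all genes. With them the medians of the WNT, TCA cycle and RNA modification lists were 0.07, 0.04 and 0.06, while the TMM medians given further on are below 0. Mitochondrial import genes then had 15 members called higher and 16 lower, against 12 and 21 called with TMM.

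**Figure D3:**
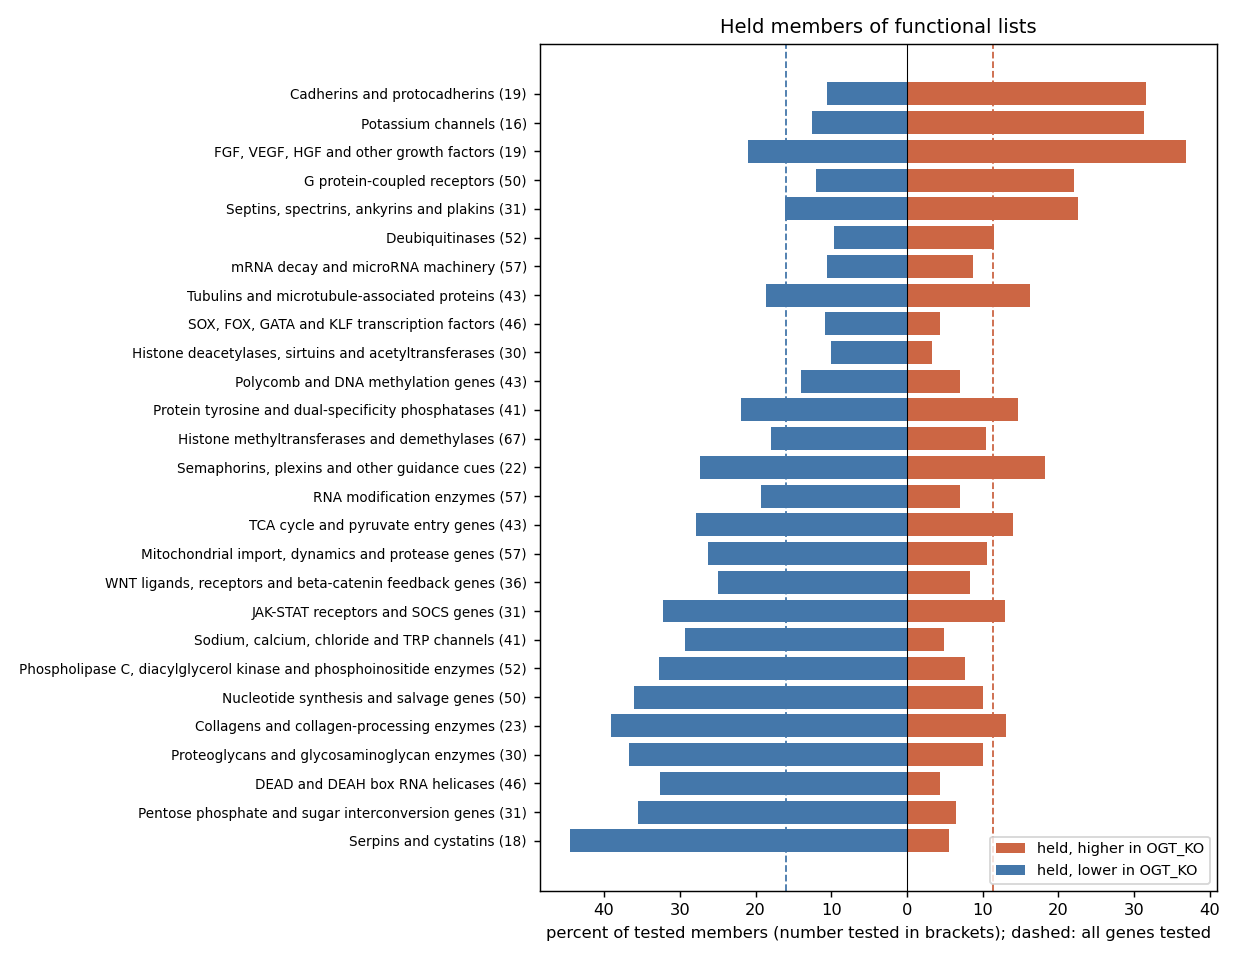
Percent of tested members held higher (orange, right) and held lower (blue, left) in the libraries labelled OGT_KO for 27 functional lists, with the number of tested members in brackets. Dashed lines mark the shares over all genes tested, 11.4% and 16.0%. Serpins and cystatins have the highest share of falls, 8 of 18, and growth factors the highest share of rises, 7 of 19.

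Secreted and matrix genes changed in both directions. LAMB3, a laminin chain of the epithelial basement membrane, rose from 37.4, 37.7 and 36.1 CPM to 163, 141 and 157 CPM (2.05 ± 0.11, edgeR adjusted p = 2.23e-16). Of 30 tested proteoglycan and glycosaminoglycan genes, 3 were held higher and 11 lower, with a median of -0.27. HSPG2, the basement-membrane heparan sulfate proteoglycan perlecan, fell by 3.18, from 33.7, 32.8 and 30.3 CPM to 2.84, 3.28 and 4.56 CPM (edgeR adjusted p = 1.07e-16). SDC3, a cell-surface heparan sulfate proteoglycan, fell by 1.82. VCAN, the chondroitin sulfate proteoglycan versican, rose instead, from 29.6, 30.6 and 21.9 CPM to 136, 165 and 119 CPM (2.36 ± 0.14, edgeR adjusted p = 1.53e-14). TNC, a matrix glycoprotein of remodelling tissue, rose by 2.25. Among 23 collagens and collagen-processing genes, 3 were held higher and 9 lower (median -0.51). COL6A2, a collagen VI chain on chromosome 21, fell by 0.90, from a mean of 181 to 97.0 CPM, and SERPINH1, the collagen chaperone of the endoplasmic reticulum, by 0.83.

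Serpins and cystatins, inhibitors of proteases, had 1 member held higher and 8 lower of 18 (median -0.43). SERPINA1, the elastase inhibitor alpha-1-antitrypsin, fell from 2.15, 2.52 and 3.40 CPM to 0.0722, 0.0234 and 0.101 CPM (-5.31 ± 0.48, edgeR adjusted p = 5.58e-11). SERPINA3, a related inhibitor of the acute phase, went from 13, 17 and 17 counts in NC to 0, 0 and 1 in the libraries labelled OGT_KO. The acute-phase gene SAA1 fell by 2.04. The member of the list held higher was TFPI, an inhibitor of the tissue factor pathway of coagulation, at 5.14, 4.56 and 4.21 CPM in NC and 15, 15.7 and 11.9 CPM in the libraries labelled OGT_KO (1.61 ± 0.17, edgeR adjusted p = 2.57e-09).

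Growth factors rose more often than they fell, with 7 held higher and 4 lower of 19 (median 0.32). MDK, the heparin-binding growth factor midkine, was the most abundant of those named, at 83.2, 85.2 and 84.7 CPM in NC and 253, 220 and 263 CPM in the libraries labelled OGT_KO (1.54 ± 0.11, edgeR adjusted p = 2.10e-13). FGF5, a fibroblast growth factor, was at 0 counts in every NC library and at 18, 55 and 30 in the libraries labelled OGT_KO, at least 35.2-fold higher against a floor of 3 counts over the NC group. VEGFC, a growth factor of lymphatic vessels, fell by 2.51 from a mean of 1.89 CPM. Among 16 receptor tyrosine kinases, 1 was held higher and 4 lower. The member held higher was MET, the hepatocyte growth factor receptor (1.02), while the fibroblast growth factor receptors FGFR3 (-1.43) and FGFR4 (-1.0) fell.

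WNT ligands, receptors and feedback genes had 3 held higher and 9 lower of 36 (median -0.05). The ligand WNT10B stood at 8.23, 8.65 and 7.27 CPM in NC and 1.47, 1.45 and 1.54 CPM in the libraries labelled OGT_KO (-2.44 ± 0.21, edgeR adjusted p = 2.69e-11). KREMEN1, a co-receptor of the WNT antagonist DKK1, fell by 1.67, and TCF7L1, a repressing transcription factor of the pathway, by 1.74. Of 22 guidance genes, 4 were held higher and 6 lower (median -0.21). Netrin-1 (NTN1) fell by 4.02 and the semaphorin receptor PLXND1 by 2.37, whereas the transmembrane semaphorin SEMA6B rose by 2.87. SEMA6B went from 1.10, 0.686 and 1.22 CPM to 7.43, 6.80 and 7.76 CPM.

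JAK-STAT receptors and suppressors had 4 members held higher and 10 lower of 31 (median 0.12). The ligand-binding interleukin-6 receptor IL6R stood at 2.44, 2.72 and 2.40 CPM in NC and 1.01, 0.867 and 0.680 CPM in the libraries labelled OGT_KO (-1.56 ± 0.31, edgeR adjusted p = 0.000104). Its signalling partner IL6ST (gp130) rose, from 4.67, 5.34 and 4.19 CPM to 9.26, 14.6 and 8.24 CPM (1.18 ± 0.20, edgeR adjusted p = 1.39e-05). SOCS3, a feedback inhibitor of that receptor complex, fell from a mean of 73 to 34 CPM, by 1.10. MYD88, the adaptor of Toll-like and interleukin-1 receptors, fell by 1.49, and USP18, a negative regulator of type I interferon receptor signalling, by 2.13.

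G protein-coupled receptors had 11 held higher and 6 lower of 50 (median 0.10). GPRC5C, an orphan receptor, was the most abundant of those named and rose from 54.3, 51.2 and 56.7 CPM to 182, 147 and 175 CPM (1.63 ± 0.11, edgeR adjusted p = 1.04e-13). Downstream, phospholipase C, diacylglycerol kinase and phosphoinositide genes had 4 held higher and 17 lower of 52 (median -0.30). INPP1, which dephosphorylates inositol phosphates, fell by 1.92 and the phospholipase PLCD1 by 1.34. INPP5J, a 5-phosphatase of phosphoinositides, rose by 2.63, from 0.798, 0.858 and 1.19 CPM to 6.45, 5.16 and 6.04 CPM.

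Ion channel lists differed in direction. Sodium, calcium, chloride and TRP channels had 2 held higher and 12 lower of 41 (median -0.16), among them the store-operated channel ORAI1 (-1.24, from a mean of 61.0 to 25.8 CPM) and the calcium-activated cation channel TRPM4 (-1.18). S100 and calcium-binding protein genes had 0 held higher and 4 lower of 20. Among these, CALM2 and CALM3, calmodulin genes that encode an identical protein from similar coding sequences, fell by 1.39 and 1.18. CALM3 stood at 475, 485 and 404 CPM in NC and 204, 208 and 189 CPM in the libraries labelled OGT_KO. Protein kinase C, protein kinase A and calcium-dependent kinase genes had 1 held higher and 7 lower of 23, and the calmodulin-dependent kinase kinases CAMKK1 and CAMKK2 fell by 1.12 and 1.09. Of 16 potassium channel genes, 5 were held higher and 2 lower (median 0.57). KCNK15, KCNN1 and KCNS1 rose by 1.80, 1.64 and 3.2, each from a mean of at most 1.03 CPM. KCNK15 and KCNS1 lie on chromosome 20, where rises outnumbered falls, as given further on.

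Adhesion and cytoskeletal genes also diverged within families. Cadherins and protocadherins had 6 held higher and 2 lower of 19 (median 0.58). N-cadherin (CDH2), on chromosome 18, rose from 8.06, 8.04 and 5.10 CPM to 24, 24.3 and 22.8 CPM (1.74 ± 0.16, edgeR adjusted p = 1.52e-10), while CDH1 had 0 counts throughout. The plakins periplakin and envoplakin, which form a complex at desmosomes and the cornified envelope, changed in opposite directions. Periplakin (PPL) rose from 16.3, 16.5 and 11.4 CPM to 48.0, 50.1 and 44.8 CPM (1.69 ± 0.14, edgeR adjusted p = 6.02e-12). Envoplakin (EVPL) fell from 70.1, 69.3 and 65.2 CPM to 18.7, 16.0 and 19.1 CPM (-1.93 ± 0.12, edgeR adjusted p = 9.52e-15). Mean FPKM was 2.22 for PPL and 10.1 for EVPL in NC, and 7.73 and 2.84 in the libraries labelled OGT_KO, so the order of the pair was reversed on the per-length scale.

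The list of septins, spectrins, ankyrins and plakins as a whole had 7 held higher and 5 lower of 31 (median -0.01). Tubulins and microtubule-associated proteins had 7 held higher and 8 lower of 43 (median 0.10). ARHGAP23, a GTPase-activating protein, fell by 1.90 from a mean of 60.8 to 16.3 CPM, and the exchange factor ARHGEF40 rose by 1.48. CALD1, an actin- and myosin-binding regulator of contraction, rose by 2.02.

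Among the most abundant genes, keratins 8 and 18, obligate partners in filaments of simple epithelia, fell together. KRT8 stood at 11700, 11500 and 12800 CPM in NC and 6390, 5180 and 6690 CPM in the libraries labelled OGT_KO (-0.98 ± 0.11, edgeR adjusted p = 8.99e-09). KRT8 made up 1.11% to 1.23% of all counts in NC and 0.576% to 0.666% in the libraries labelled OGT_KO. KRT18 fell by 0.92 (edgeR adjusted p = 7.77e-08), whereas KRT7, another type II keratin, rose by 0.41 (edgeR adjusted p = 0.00359), or 0.40 with an adjusted p of 0.138 when all 9 libraries entered the edgeR fit. KRT8 and KRT18 have processed pseudogenes, so reads could be split between copies. CAVIN1, a coat protein of caveolae, fell from 3890, 3870 and 3460 CPM to 1940, 1790 and 2010 CPM (-0.97 ± 0.11, edgeR adjusted p = 4.77e-09).

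Metabolic lists differed in direction, and those of nucleotides and sugars had more falls than rises. Falls were also the more frequent over all genes tested (16.0% held lower, 11.4% higher). Cytochromes P450 had 5 held higher and 1 lower of 14, urea cycle, arginine and polyamine genes 5 and 5 of 28, and peroxisome genes 3 and 5 of 36. Nucleotide synthesis and salvage had 5 held higher and 18 lower of 50 (median -0.24). GART, which catalyses 3 steps of purine synthesis and lies on chromosome 21, stood at 122, 129 and 115 CPM in NC and 48.7, 57.8 and 54.6 CPM in the libraries labelled OGT_KO (-1.18 ± 0.11, edgeR adjusted p = 1.57e-10). PNP, which cleaves purine nucleosides, fell by 1.11. UPP1, which cleaves uridine, rose from 239, 203 and 258 CPM to 568, 421 and 548 CPM (1.13 ± 0.12, edgeR adjusted p = 3.36e-09).

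Pentose phosphate and sugar interconversion genes had 2 held higher and 11 lower of 31 (median -0.20). GYS1, the glycogen synthase of muscle and most other tissues, stood at 179, 178 and 175 CPM in NC and 75.1, 69.6 and 81.6 CPM in the libraries labelled OGT_KO (-1.23 ± 0.11, edgeR adjusted p = 3.21e-11). SORD, which oxidises sorbitol to fructose, fell by 1.28. GALM, the aldose 1-epimerase, went from 80, 73 and 71 counts in NC to 0, 2 and 0 in the libraries labelled OGT_KO, a ratio of 0.00915 (95% exact interval 0.0011 to 0.0334). PFKFB3, which makes the activator of phosphofructokinase, fell by 0.90.

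In the mitochondrial lists, named enzymes of the TCA cycle and its entry points fell, while the list median was close to that of all genes. Of 43 TCA cycle and pyruvate entry genes, 6 were held higher and 12 lower (median -0.07). SUCLG1, a subunit of succinyl-CoA ligase, stood at 80.8, 89.7 and 78.5 CPM in NC and 25.4, 30.1 and 18.2 CPM in the libraries labelled OGT_KO (-1.76 ± 0.14, edgeR adjusted p = 2.05e-11). The iron-sulfur subunit of succinate dehydrogenase, SDHB, fell by 1.12, the mitochondrial malic enzyme ME3 by 1.56 and glutamate dehydrogenase (GLUD1) by 1.12.

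Mitochondrial import, dynamics and protease genes had 6 held higher and 15 lower of 57 (median -0.13). TOMM40, the channel of the outer-membrane import complex, stood at 611, 633 and 567 CPM in NC and 184, 177 and 164 CPM in the libraries labelled OGT_KO (-1.78 ± 0.11, edgeR adjusted p = 4.28e-15). SAMM50, which inserts beta-barrel proteins such as TOMM40 into that membrane, fell by 1.48. The fusion genes OPA1 and MFN1 rose by 1.18 and 1.14 from means of 1.44 and 1.36 CPM.

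**Figure D4:**
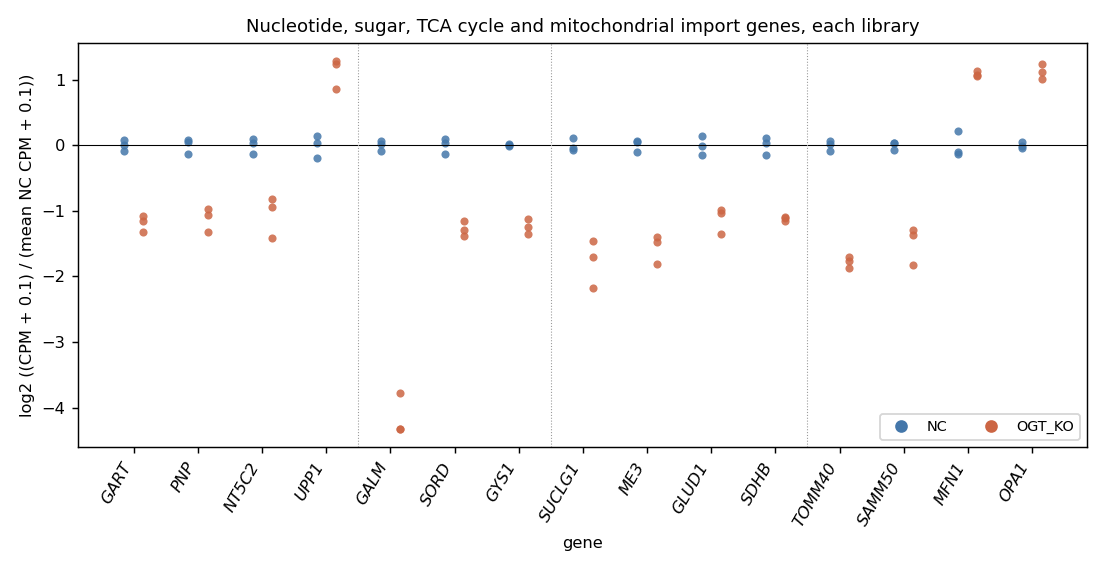
Log2 of (CPM + 0.1) relative to the NC mean + 0.1 for each NC (blue) and OGT_KO (orange) library, for up to 4 held genes with the largest change in each of 4 lists (nucleotide, sugar, TCA cycle, mitochondrial import), separated by dotted lines. UPP1, MFN1 and OPA1 lie above 0 in the libraries labelled OGT_KO and the other genes below.

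Messenger RNAs encoded by the mitochondrial genome went the other way, with 8 held higher and 1 lower of 13 (median 0.46). ATP6, a subunit of ATP synthase that overlaps ATP8 on the same strand, rose from 895, 1220 and 1020 CPM to 2180, 2430 and 1890 CPM (1.05 ± 0.12, edgeR adjusted p = 1.06e-08). The cytochrome oxidase subunits COX1, COX2 and COX3 rose by 0.55, 0.46 and 0.38, but with all 9 libraries in the edgeR fit their adjusted p-values were 0.059, 0.178 and 0.137. Nuclear-encoded ATP5F1B, the catalytic beta subunit of ATP synthase, fell by 0.61.

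Among lists of RNA handling, the helicases fell more often than they rose, while RNA modification enzymes lay nearer to the shares of all genes. DEAD and DEAH box RNA helicases had 2 held higher and 15 lower of 46 (median -0.20). DHX37, a helicase of ribosomal small-subunit assembly, went from 361, 344 and 335 CPM to 140, 118 and 137 CPM (-1.40 ± 0.11, edgeR adjusted p = 2.07e-12), and the mRNA export helicase DDX39A fell by 0.97. RNA modification enzymes had 4 held higher and 11 lower of 57 (median -0.05). DKC1, the pseudouridine synthase of ribosomal RNA and a telomerase component, stood at 139, 137 and 95.9 CPM in NC and 36.0, 42.6 and 37.7 CPM in the libraries labelled OGT_KO (-1.68 ± 0.13, edgeR adjusted p = 5.24e-12). The elongation factors EEF1A1 and EEF1A2, which deliver aminoacyl-tRNA to the ribosome, rose by 1.04 and 0.92. EEF1A1 stood at 1140, 1390 and 1370 CPM in NC and 2570, 2740 and 2700 CPM in the libraries labelled OGT_KO. EEF1A1 and the ribosomal protein genes have many pseudogenes, and RPL13A (-0.87) and RPL28 (0.61) changed in opposite directions.

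Chromatin lists stood near or below the shares of all genes. Polycomb and DNA methylation genes had 3 held higher and 6 lower of 43 (median -0.01), and the named members with the largest changes included both de novo DNA methyltransferase genes. DNMT3B, a de novo methyltransferase, stood at 8.06, 8.87 and 6.24 CPM in NC and 2.12, 2.37 and 1.79 CPM in the libraries labelled OGT_KO (-1.88 ± 0.21, edgeR adjusted p = 7.46e-09). DNMT3A, the other de novo enzyme, fell by 1.27 from a mean of 2.71 CPM. DNMT1, the maintenance methyltransferase, was not called (-0.12 ± 0.13, edgeR adjusted p = 0.51). UHRF1, which recruits the maintenance methyltransferase to replicated DNA, fell from 93.7, 76.8 and 78.0 CPM to 33.7, 36.7 and 33.5 CPM (-1.26 ± 0.12, edgeR adjusted p = 9.70e-11). Histone deacetylases and acetyltransferases had 1 held higher and 3 lower of 30, and histone methyltransferases and demethylases 7 and 12 of 67. SOX, FOX, GATA and KLF factors had 2 and 5 of 46, deubiquitinases 6 and 5 of 52, mRNA decay and microRNA genes 5 and 6 of 57, and Mediator and RNA polymerase II genes 8 and 13 of 96.

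Held genes were spread unevenly over the chromosomes, given here as counts with no test. On chromosome 21, 2 of 121 tested genes were held higher (1.65%) and 48 lower (39.7%), with a median log2 change of -0.53. Relative to the NC mean, the median gene of chromosome 21 lay at -0.44, -0.46 and -0.53 in the libraries labelled OGT_KO and between -0.05 and 0.03 in NC. Chromosome 20 showed the opposite, with 95 of 345 held higher (27.5%) and 24 lower (6.96%), and a median of 0.27. All 3 libraries labelled OGT_KO had a median of 0.21 to 0.25 there. Chromosome 18 had 35 of 173 held higher (20.2%) and 8 lower (4.62%), with medians of 0.19, 0.42 and 0.25. Chromosome 22 had 29 of 322 held higher and 87 lower (median -0.19), and chromosome 13 had 18 of 197 held higher and 8 lower (median 0.14). Over all chromosomes other than 18, 20, 21, Y and the mitochondrial genome, 10.9% of 11425 genes were held higher and 16.3% lower, with a median of 0.03.

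The shift ran along the length of these chromosomes. With the genes of each split into 4 equal groups by position, the medians on chromosome 21 were -0.39, -0.50, -0.84 and -0.56, and on chromosome 20 they were 0.35, 0.21, 0.23 and 0.25. On chromosome 18 the first group had 0.14 and the later ones 0.43, 0.39 and 0.46. After the GC correction the medians were -0.49 for chromosome 21, 0.31 for chromosome 20 and 0.31 for chromosome 18. Several genes named above lie on these chromosomes, among them SPATC1L, GART and COL6A2 on 21 and CDH2 on 18. Those on 20 include EEF1A2, KCNK15, KCNS1 and DNMT3B. DNMT3B fell against the direction of its chromosome. DNA copy number was not analysed here.

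**Figure D5:**
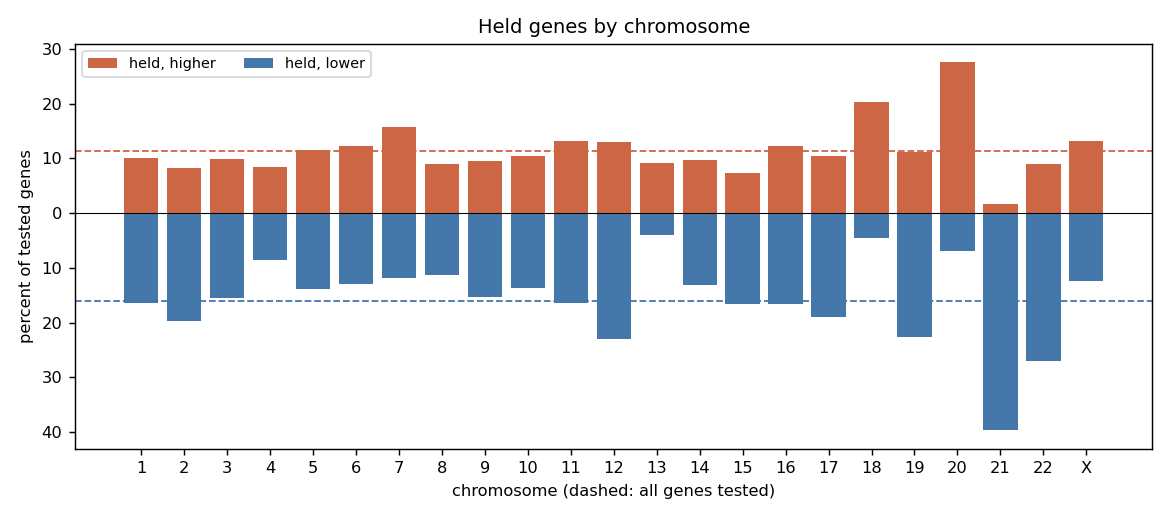
Percent of tested genes on each chromosome held higher (orange, up) and held lower (blue, down) in the libraries labelled OGT_KO, with dashed lines at the shares over all genes tested (11.4% and 16.0%). Chromosome 21 has 39.7% held lower and 1.65% held higher, and chromosome 20 has 27.5% held higher.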

How the data were processed

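RNA-seq libraries of cells labelled A549, as NC (3) and OGT_KO (3) were compared, and the other 3 libraries of the series entered only as an alternative. The counts were deposited by the authors as integers per gene, not normalized, for 19257 genes. The deposited FPKM values were scaled by the authors to gene length and library total. Per the submitters' processing notes, fastp, HISAT, HTSeq, R 3.2.0 and DESeq2 were used with GRCh38. The sources used here do not give counting settings or strandedness, so overlapping, antisense and near-identical genes are uncertain.

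In edgeR 4.0.16 (R 4.3.3), filterByExpr kept 12195 genes, scaling was by TMM, and only the 6 libraries entered the quasi-likelihood fit (glmQLFit with robust estimation, then glmQLFTest), with Benjamini-Hochberg adjustment over all tested genes and a threshold of 0.05. The test was tested on simulated data. Standard errors (SE) are the absolute log2 change over the square root of F. The biological coefficient of variation was 0.152. Replicate counts differed beyond sampling noise (chi-square per degree of freedom 9.99 to 41.8), so no library was a copy.

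Alternatives were RLE scaling, library totals, other filters, DESeq2 1.42.0, limma 3.58.1 on log2(FPKM + 1) and log2(FPKM + 0.1), all 9 libraries, the replicate number as a block, and each library left out. Corrections for GC content, and for GC content with length, were added after seeing the data. GC content came from the longest GENCODE transcript, for 93.8% of tested genes. Positions and promoters came from RefSeq, which matched 18339 symbols and 222 synonyms.

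Genes named were OGT and OGA, the 15 largest held changes per direction (average log2 CPM 2 or more), the 8 per direction with the largest CPM difference, up to 4 held genes of each list by size of change, and near-silent genes. Not all eligible genes and lists are named, and some are not reported here. Genes outside this rule have values only as markers of the cell line or of other cell types, apart from the uncalled DNMT1. The comparison, its members and the 78 gene lists were chosen with earlier results of these data known, so no list was tested as a set.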

Additional observations from a re-analysis of the deposited data

How the results depend on the processing

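The count of genes called, 5095, ranged from 4204 to 5229 when each library was left out in turn, and all 3336 held genes are called in those fits by definition. With all 9 libraries in the edgeR fit, 2303 genes were called, 1039 higher and 1264 lower, and 2146 of the 3336 held genes were among them. There 34 of the 337 genes eligible for naming no longer passed. With limma on log2(FPKM + 1), where fewer genes were tested, 1773 genes were lower and 289 changed at least 2-fold; with log2(FPKM + 0.1) the values were 1765 and 578. OGT passed the threshold only with the corrections for GC content (-0.29, edgeR adjusted p = 0.0464) and for GC content and length (-0.34, edgeR adjusted p = 0.0146). Over all alternatives its log2 change lay between -0.34 and -0.05, and the cause was not tested. ATP13A3 and SELENOT were lost with both GC corrections, and SLC11A2 with library totals and with limma. No named gene reversed under any alternative run. Of the 156 counts of list members called, higher or lower, 119 moved by over 1.5 times with all 9 libraries, 74 and 75 with limma on FPKM + 1 and FPKM + 0.1, 19 with library totals, 6 with the GC correction, 11 with that for GC content and length, and 7 to 27 when 1 library was left out. Deviations from the group mean correlated at -0.01, 0.08 and 0.08 between same-numbered libraries of the groups, and at -0.111 to 0.045 between differently numbered ones. Whether the replicate numbers pair the libraries was not tested. With the replicate number as a block, edgeR called 5663 genes, 2674 higher and 2989 lower. With 3 libraries per group, depth leaves genes under about 1 CPM with few counts, and changes there are the least precise.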
